A study of Mus musculus with 3 samples.

Results

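Red cell precursors depend on erythropoietin, the hormone that binds the receptor Epor on their surface. The receptor carries the kinase Jak2, which activates the transcription factors Stat5a and Stat5b, and these switch on survival genes such as Bcl2l1, which encodes the anti-apoptotic protein Bcl-xL, and Pim1, a serine/threonine kinase. The adaptor Sh2b3 (LNK) and the suppressor Socs3 restrain the pathway. The DNA contacts of the promoters of these 8 genes were examined, and their viewpoints were found by name, as those whose name holds one of these gene symbols. The design held 7 viewpoints of 6 of the genes among 7197 listed promoter fragments: Bcl2l1_a, Bcl2l1_b, Sh2b3, Epor, Stat5a, Socs3 and Pim1. Jak2 and Stat5b were not on the list of viewpoints and were therefore examined only as contacts of other promoters.

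The data were from Nuclear-Titrated Capture-C, in which nuclei are digested with DpnII, re-ligated and enriched with oligonucleotides for chosen fragments (viewpoints), so that each sequenced junction reports a DNA fragment that lay near the promoter. All 3 libraries came from 1 group, ter119+ erythroid cells from spleens of C57BL/6 and CBA/J F1 hybrid mice made anaemic with 3 doses of phenylhydrazine given 12 h apart and killed on day 5. There was no untreated group, other cell type or second genotype, and the table had 3 unnamed library columns, called a, b and c here in their order, which the labels do not tie to replicate numbers. Contact counts hold no expression, so the cell type could not be checked against marker genes.

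The promoters differed in depth. Over all viewpoints the libraries held 18230099, 34428035 and 34233560 unique same-chromosome ligation events (a, b and c). The Stat5a viewpoint had 2565, 3598 and 3574 events, a sum of 9737. It was the one member above the median of 7022.5 events over the 6718 viewpoints with at least 1000. Epor had 732, 1242 and 1298 events. Bcl2l1_b had 572, 945 and 1018 events. The sums of the other 4 were 2469 (Socs3), 1651 (Bcl2l1_a), 1211 (Pim1) and 1183 (Sh2b3), so that Sh2b3 ranked 6614 of 6718. The lists of single-fragment contacts from these promoters were thus sparse, and counts were summed in 5 kb windows. Libraries b and c differed by little more than counting error (mean chi-square per window 1.02, where counting alone gives about 1), and a differed from both by more (1.13). These values are over all viewpoints, and in the windows of the members alone they were 1.02 for b and c, 1.08 for a and b and 1.02 for a and c, so the members by themselves do not set a apart. From the values over all viewpoints b and c were averaged as 1 value, and every mean ± SD below is over n = 2. Such an SD leaves out the spread between b and c, so a small SD does not show that the 3 libraries were alike. The labels do not say whether the libraries came from separate animals, so the spread may be technical.

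The promoters differed in the sequence motifs near their starts. In mm9 coordinates, the 150 bases before the RefSeq start of Epor (chr9:21768021-21768170, minus strand) held 1 match to AGATAA, the letters bound by GATA factors, and 4 overlapping matches to CCNCNCCC, a KLF-type motif. Capitals mark the matches on either strand in the 3 promoter stretches below, none of which holds an annotated exon. RefSeq starts were placed in mm9 by an exact match of the RefSeq promoter sequence.
Epor: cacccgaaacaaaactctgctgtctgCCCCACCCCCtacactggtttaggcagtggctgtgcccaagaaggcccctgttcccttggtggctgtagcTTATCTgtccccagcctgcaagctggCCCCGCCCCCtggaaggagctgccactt
Pim1: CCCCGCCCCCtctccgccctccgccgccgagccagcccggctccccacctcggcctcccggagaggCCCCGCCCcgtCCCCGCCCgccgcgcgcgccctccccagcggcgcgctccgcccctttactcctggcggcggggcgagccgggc
Bcl2l1: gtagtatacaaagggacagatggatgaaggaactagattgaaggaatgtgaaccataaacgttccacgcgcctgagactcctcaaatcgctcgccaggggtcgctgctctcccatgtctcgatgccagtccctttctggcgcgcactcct

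The Pim1 stretch (chr17:29627580-29627729, plus strand) held 4 KLF-type matches and no other. A stretch before another RefSeq start of Pim1 (chr17:29629880-29630029) also holds no exon. It held 1 KLF-type match and is not shown. The Bcl2l1 stretch (chr2:152657465-152657614, minus strand), before the most upstream start, held none of the motifs searched. Stretches before other RefSeq starts of Bcl2l1 overlap exons and are not shown. The one before 152654225 held 1 match to AGATAA, and the one before 152656453 held 1 match to CCNCNCCC. The stretches before the RefSeq starts of Socs3, Sh2b3 and Stat5a also overlap exons. They held 6 (Socs3), 1 (Sh2b3), and 0 and 1 (Stat5a) matches to CCNCNCCC, and none to AGATAA. Of the 150 bases before 22350 protein-coding genes, 5.00% held AGATAA and 43.1% held CCNCNCCC, so the GATA match of Epor was the rarer kind. Among the viewpoint fragments, those of Epor and Sh2b3 held 1 match to AGATAA each. Of viewpoint-centred regions of those lengths, 36.5% and 53.5% held it. TTCNNNGAA, the letters bound by STAT factors, occurred in 1 member fragment. The Socs3 viewpoint (897 bases) held it at 2 places, and 19.6% of regions of that length centred on the viewpoints held at least 1. The Socs3 sites are shown with their flanks on the plus strand of mm9, at chr11:117830543-117830571 and chr11:117830816-117830844, with the match in capitals.
Socs3 site 1: cgccccccgaTTCCTGGAActgcccggcc
Socs3 site 2: cccccctcccTTCTAAGAAggctggtttc

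These matches are letters in a window and were not tested for binding. None of the 7 viewpoint fragments held the core of the CTCF motif, beside 0.516% to 2.09% of viewpoint-centred regions of the same lengths. No match is thus near the background.

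Bcl2l1 and Pim1 had windows with more contacts than expected from distance, and Epor, Stat5a, Sh2b3 and Socs3 had none that passed. The expected count of a window was set by its distance and by the total of the viewpoint between 10 kb and 1 Mb, and the excess was tested with a negative binomial model over all windows of all viewpoints (adjusted p under 0.05 by Benjamini-Hochberg, and above expectation in each library). Of 2783 member windows 10 were called (0.359%), beside 0.188% of the 2640319 windows over all viewpoints. The calls came from 3 of the 7 viewpoints, and 31.7% of all viewpoints had at least 1. Of the 1337 viewpoints of a depth between 1000 and 3272 events, 25.7% had a call and 4.41% had 3 or more. The share of members with a call was thus near the background. Both Bcl2l1 viewpoints had 3 or more, but they are neighbouring fragments of 1 locus in the same libraries and are not independent of each other. The count depended on the model. With the expected count scaled to the total on the same side of the promoter, 2 member windows were called (1 of Bcl2l1_b and 1 of Pim1), of which 1 was among the 10. The called Bcl2l1 windows were then 2.39-fold to 5.33-fold above expectation and the called Pim1 windows 4.89-fold and 3.62-fold, lower than the values given below. With the dispersion estimated from all windows 3 were called, and without library b or c there were 6 and 5. Windows at an unadjusted p under 0.05 in the negative binomial test were also counted where they were above expectation in each library. The members with no call had 10 (Epor), 5 (Stat5a), 2 (Sh2b3) and 2 (Socs3), beside 20 and 21 for the Bcl2l1 pair and 11 for Pim1. These were 0.50% (Sh2b3) to 5.28% (Bcl2l1_b) of the windows of a member, beside 4.57% of the windows over all viewpoints.

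Bcl2l1 contacted DNA downstream of its promoter, across its own gene and as far as H13, and had few contacts upstream. The gene is on the minus strand of chromosome 2. The fragment Bcl2l1_a (chr2:152656359-152656632) and the fragment Bcl2l1_b (chr2:152656636-152657970) are neighbours, and both overlap an exon and hold annotated Bcl2l1 starts. All 8 called windows of the pair were downstream, in 5 places, of which 3 were called from both fragments.

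**Figure D1:**
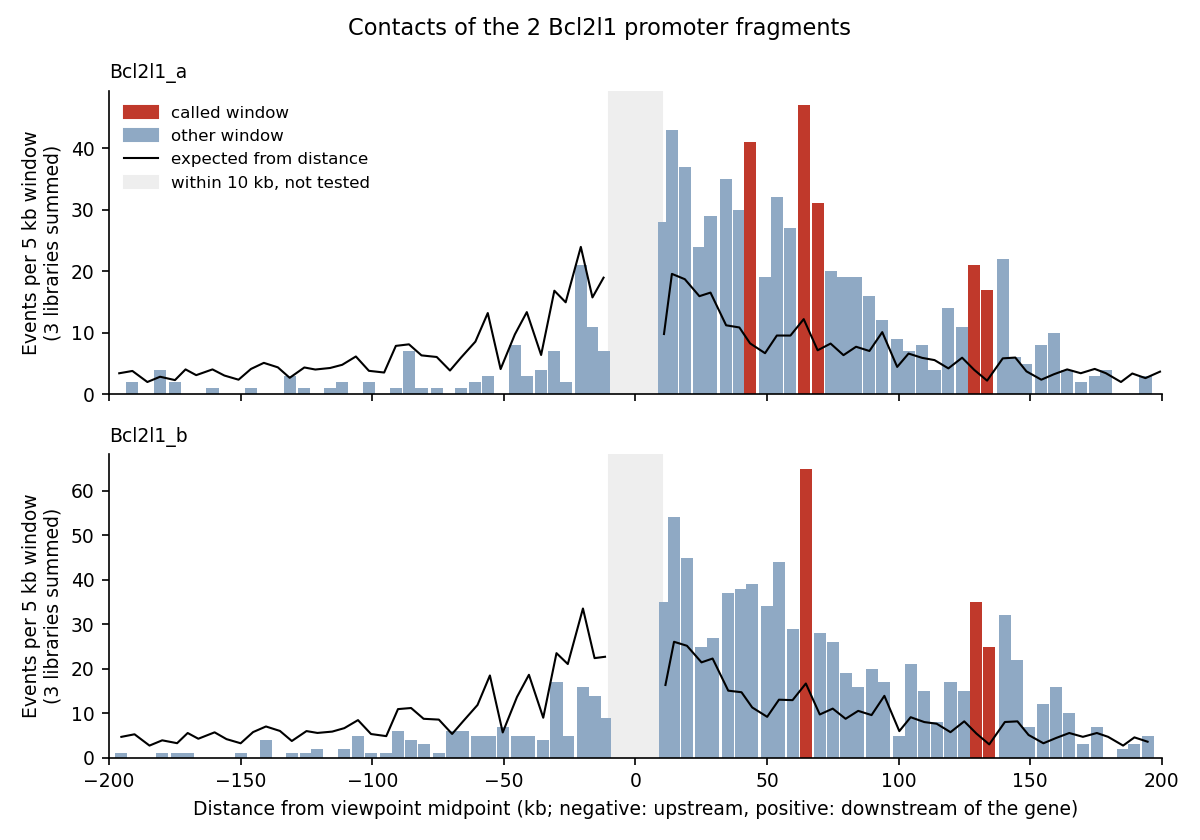
Events per 5 kb window (3 libraries summed) against the distance from the midpoint of the viewpoint for Bcl2l1_a (top) and Bcl2l1_b (bottom), with upstream of the gene to the left; red bars are called windows and the black line is the count expected from distance. From both fragments the bars stand above the line over much of the first 150 kb downstream and below it upstream, and the called windows lie at 43.6 to 134 kb.

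The farthest contacts lay in H13, which encodes signal peptide peptidase. The window chr2:152520001-152525000, 134 kb from the promoter, held 5, 10 and 10 events from Bcl2l1_b in libraries a, b and c, where 3.02 were expected in all. It was 7.96 ± 0.87-fold above expectation (8.28-fold over the summed libraries, negative binomial adjusted p = 0.00042). From Bcl2l1_a it held 5, 9 and 3 events against 2.22 expected, 7.79 ± 0.62-fold (7.66-fold summed, negative binomial adjusted p = 0.0049). All libraries were above expectation from both fragments, and the widest gap was between b and c from Bcl2l1_a (10.9-fold and 3.82-fold). With the dispersion estimated from all windows, this window was called from neither fragment (negative binomial adjusted p = 0.11 from Bcl2l1_b and 0.22 from Bcl2l1_a). With the expected count scaled by side it was called from Bcl2l1_b but not from Bcl2l1_a (negative binomial adjusted p = 0.020 and 0.095). The next window (chr2:152525001-152530000) held 8, 14 and 13 events from Bcl2l1_b (6.41-fold, negative binomial adjusted p = 0.0019). From Bcl2l1_a it held 8, 7 and 6 (5.30-fold, negative binomial adjusted p = 0.034). Both windows overlap H13, and the farther also holds the annotated gene Gm17559.

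A nearer pair of windows lay at Cox4i2, beside the 3′ end of Bcl2l1. Cox4i2 encodes an isoform of a cytochrome c oxidase subunit. In the window chr2:152590001-152595000, 63.9 kb away, Bcl2l1_a had 10, 17 and 20 events (3.57 ± 0.91-fold, 3.85-fold summed, negative binomial adjusted p = 0.028). Bcl2l1_b had 12, 22 and 31 events there (3.61 ± 0.70-fold, 3.89-fold summed, negative binomial adjusted p = 0.016). This was the window with the most events of the 10. The window beside it (chr2:152585001-152590000), within Cox4i2, was called from Bcl2l1_a alone, with 10, 11 and 10 events (4.34-fold, negative binomial adjusted p = 0.025). Bcl2l1_b had 4, 12 and 12 events in that window (2.87-fold, negative binomial adjusted p = 0.29), also above expectation in each library. The difference between the fragments was not tested. With 2 kb windows, the one at its middle was at 8.67-fold from Bcl2l1_a. The one at the middle of the window at the 3′ end of Bcl2l1 was at 6.46-fold, and both were called. From Bcl2l1_b the latter was at 4.23-fold and was not called (negative binomial adjusted p = 0.070). In H13 the 2 kb windows at the middles were not called from Bcl2l1_a (6.85-fold and 6.94-fold). From Bcl2l1_b the farther was called (10.4-fold) and the nearer was not (5.49-fold).

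Within the gene, Bcl2l1_a contacted an intronic window 43.6 kb from the promoter (chr2:152610001-152615000). It held 11, 17 and 13 events (4.87 ± 0.24-fold, 4.96-fold summed, negative binomial adjusted p = 0.0034). Bcl2l1_b had 12, 10 and 17 events there (3.45-fold, negative binomial adjusted p = 0.10), which did not pass. The 3 libraries were alike for Bcl2l1_a, between 4.48-fold and 5.59-fold.

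**Figure D2:**
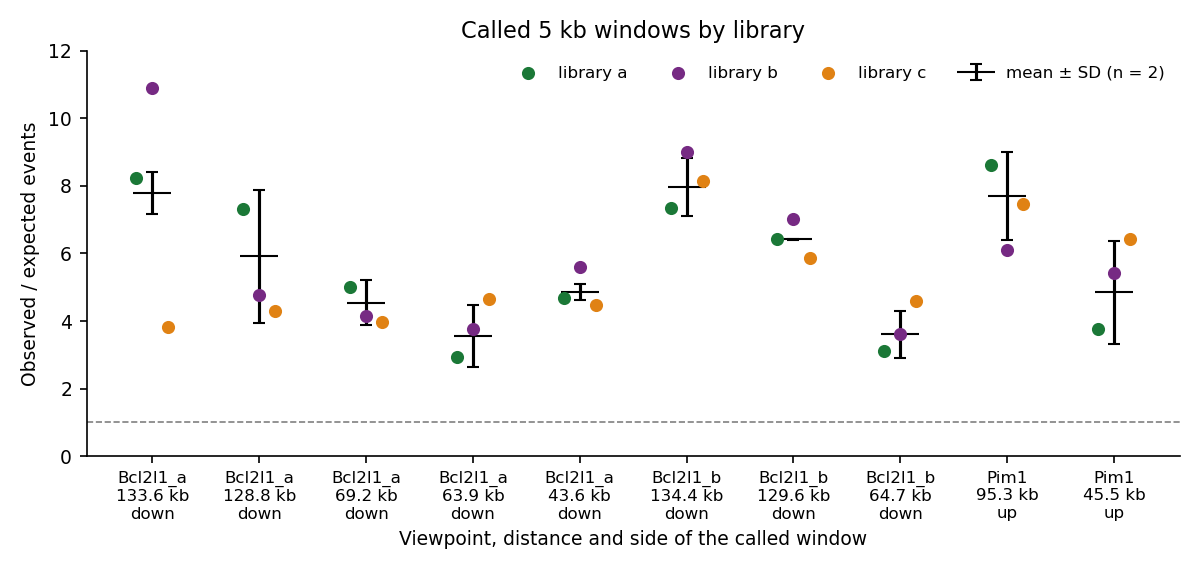
Observed over expected events in the 10 called 5 kb windows, by library (coloured points), with the mean ± SD over n = 2 (library a, and the mean of b and c) in black; the dashed line is the expected level of 1. The lowest point is at 2.92, and by the mean the 2 windows of H13 stand highest of the Bcl2l1 windows from either fragment. This does not hold in each library: in c the farthest H13 window was the lowest of the called windows of Bcl2l1_a (3.82-fold).

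The core of the CTCF motif, which is bound by the factor that holds many chromatin loops, was found in 3 of the 5 Bcl2l1 windows. It was found in 2.40% of the 510657 windows of 5 kb in the genome. In each of the 3 windows, the DpnII fragment with the most events from a viewpoint that called it held no match to the core. These fragments held 4 to 12 events over the summed libraries, so their rank rests on few events. In H13 the one from Bcl2l1_b (chr2:152522230-152522592) ended shortly before the match, which starts at 152522682. The 3 sites lay in an intron of H13 (chr2:152522668-152522707, plus strand), in Cox4i2 (chr2:152586637-152586676, minus strand) and near the 3′ end of Bcl2l1 (chr2:152593541-152593580, minus strand), none of them in an exon. Each is shown in the direction of the motif, with the match in capitals.
H13 window: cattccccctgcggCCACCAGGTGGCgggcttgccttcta
Cox4i2 window: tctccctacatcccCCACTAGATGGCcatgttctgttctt
Bcl2l1 3′ window: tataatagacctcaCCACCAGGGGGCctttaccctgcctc

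The H13 match was on the plus strand and the other matches were on the minus strand. The windows also held 1 to 6 matches to AGATAA each, where the median window of the genome held 3. The window at the 3′ end of Bcl2l1 held 19 matches to CCNCNCCC, a count that 3.70% of all windows reached. TTCNNNGAA was absent from the farthest window in H13 and from the intronic window, and 84.5% of all windows held it.

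Bcl2l1 was one-sided both between 10 and 50 kb and between 50 and 150 kb. Between 50 and 150 kb downstream, Bcl2l1_a had 92, 129 and 126 events, 2.59 ± 0.11-fold over expectation. At the same distance upstream it had 9, 11 and 6 events, 0.251 ± 0.058-fold. Bcl2l1_b gave 2.54 ± 0.23-fold downstream and 0.457 ± 0.19-fold upstream. Beyond 150 kb both sides fell below expectation, for example 0.455 ± 0.056-fold for Bcl2l1_a between 150 and 500 kb downstream. Expected counts are scaled to the total of the viewpoint in range, so an excess in one range lowers the ratios in the others. As a share of all its events, Bcl2l1_a had 19.8% between 100 kb and 1 Mb, beside a median of 19.6% over all viewpoints.

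Other promoters also saw these windows. Tpx2, a spindle assembly factor whose viewpoint lies 16.7 kb from Bcl2l1_a, had 11 events in the window chr2:152520001-152525000 where 1.25 were expected (8.78-fold), and this window was called. It was the one call among 12 other viewpoints with an expected count of at least 1, whose median ratio was 1.72. None of the 13 to 15 other viewpoints was called at the other 4 windows, where the medians lay between 1.03 and 1.63. In the fragments beside the Tpx2 viewpoint itself, Bcl2l1_a had 7 events where 7.59 were expected.

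Pim1 contacted DNA upstream of its promoter, with calls in 2 windows that overlap no annotated gene. Its viewpoint (chr17:29627792-29628106, plus strand) overlaps an exon, and the annotated start at 29627757 lies just outside it. The window chr17:29530001-29535000, 95.3 kb upstream, held 7, 7 and 9 events against 3.17 expected in all. It was 7.69 ± 1.30-fold above expectation (7.26-fold summed, negative binomial adjusted p = 0.0017). The window chr17:29580001-29585000, 45.5 kb upstream, held 6, 12 and 15 events, 4.85 ± 1.52-fold (5.38-fold summed, negative binomial adjusted p = 0.0043). Both were above expectation in all libraries, and library a was the highest in the first and the lowest in the second. In the 10 kb window that held its middle the first fell to 3.72-fold and was not called (negative binomial adjusted p = 0.079). With the dispersion estimated from all windows the first was not called either (negative binomial adjusted p = 0.73), while the second was. In the 2 kb window that held its middle the second was not called (negative binomial adjusted p = 0.088). With the expected count scaled by side neither was called (negative binomial adjusted p = 0.053 and 0.19). The Pim1 window called in that setting was another.

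**Figure D3:**
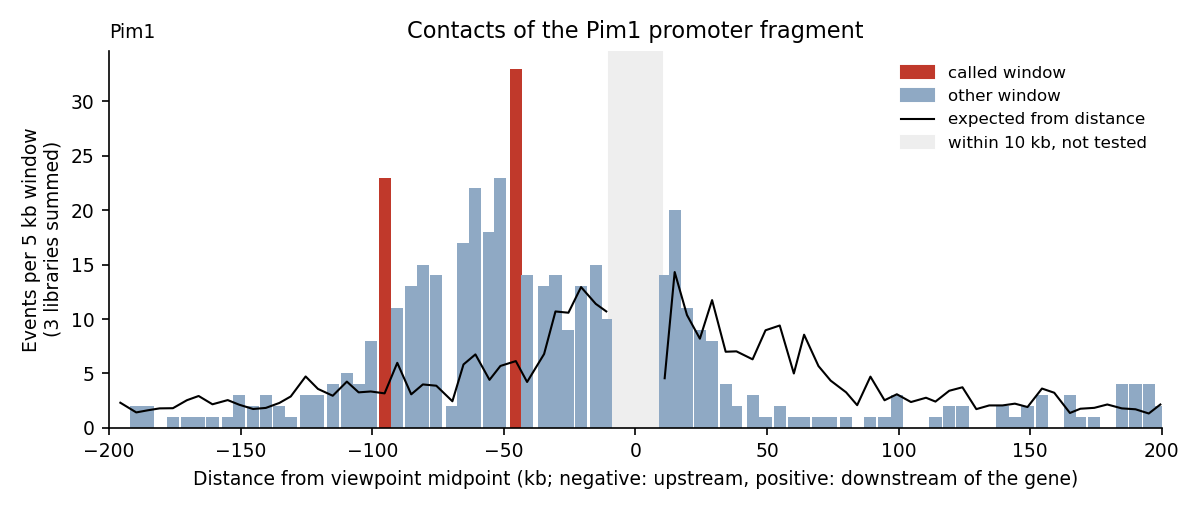
Events per 5 kb window (3 libraries summed) against the distance from the midpoint of the Pim1 viewpoint, with upstream of the gene to the left; red bars are called windows and the black line is the count expected from distance. Between 50 and 150 kb the bars lie above the line upstream (2.54-fold over the summed libraries) and below it downstream (0.300-fold).

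The 2 Pim1 windows held 18 and 17 matches to CCNCNCCC, where the median window held 4 and 4.36% and 5.12% of all windows held as many. They held 2 and 4 matches to AGATAA, 4 and 2 to TTCNNNGAA and none to the CTCF core. Between 50 and 150 kb upstream Pim1 had 50, 70 and 73 events (2.55 ± 0.04-fold), the highest ratio of the 4 distance ranges on that side. The same range downstream held 2, 7 and 13 events (0.235 ± 0.18-fold). Of 11 other viewpoints none was called at either window. Their median ratio was 2.42 in the window 95.3 kb upstream and 1.65 in the window 45.5 kb upstream, so an excess there was not particular to Pim1. The highest of them was Brpf3, which encodes a chromatin scaffold protein, at 4.16-fold (9 events) and 3.68-fold (8 events).

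Pim1 was also the member with the most contacts close by. Between 2.5 and 10 kb it had 14.8%, 13.6% and 13.1% of its events, above 99.8% of viewpoints. Beyond 10 Mb it had 9.86%, 14.7% and 14.0%, below all but 0.313% of viewpoints. Its share from 2.5 kb to 1 Mb was 61.4% (95% exact binomial interval 58.5 to 64.1%). Intervals cover counting error only.

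All 7 members had more of their contacts between 2.5 kb and 1 Mb than the median viewpoint, at 42.3%. Of these members, Bcl2l1_a and Bcl2l1_b are neighbouring fragments. The highest shares, over the summed libraries, were those of Bcl2l1_a (62.6%, interval 60.2 to 64.9%) and Pim1. Epor followed at 57.0%, Bcl2l1_b at 55.2% and Stat5a at 52.8%. Sh2b3 was at 46.8%, with 52.2%, 43.9% and 46.8% in the libraries, and Socs3 was lowest at 45.3%. Sh2b3 exceeded 67.2% of the viewpoints and Socs3 61.6%. The Sh2b3 and Socs3 shares differed by less than the SD of Sh2b3 (4.84). No test was made, since the samples are 1 group.

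Bcl2l1_a had 35.9% of its events between 10 and 100 kb, more than 99.7% of viewpoints, and the median was 15.9%. Epor had its excess farther out, with 30.4% between 100 kb and 1 Mb, more than 94.3% of viewpoints. Socs3 had the highest share of the members between 1 and 10 Mb, at 26.7% against a median of 21.4%.

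**Figure D4:**
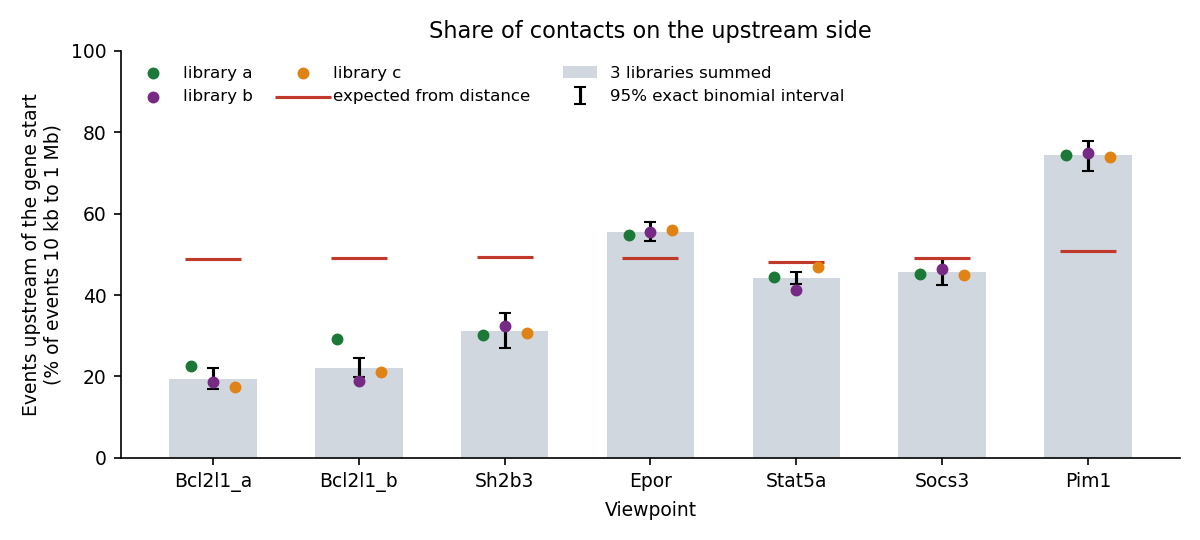
Percent of events between 10 kb and 1 Mb that lay upstream of the gene, for the 7 viewpoints (bars: 3 libraries summed, with 95% exact binomial intervals; points: libraries), beside the share expected from distance (red lines). Bcl2l1 and Sh2b3 lie below their red line and Pim1 above it in all 3 libraries, and Epor, Stat5a and Socs3 lie within 10 points of it.

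The members fell on both sides of an even split. Pim1 had 74.4 ± 0.12% of its events between 10 kb and 1 Mb upstream, with 50.9% expected from distance. Bcl2l1_a had 20.4 ± 3.2% and Bcl2l1_b 24.6 ± 6.6%, and over the summed libraries between 10 and 250 kb they had 12.8% and 14.5%. Counted on the fuller side, Bcl2l1_a exceeded 99.1%, Bcl2l1_b 97.9% and Pim1 95.6% of the viewpoints. Sh2b3 had 30.1%, 32.4% and 30.6% upstream, with 49.2% expected. Epor was the other member with more than an even share upstream, at 55.3 ± 0.71%. Stat5a (44.3 ± 0.21%, with 44.4%, 41.3% and 47.0% in the libraries) and Socs3 (45.4 ± 0.43%) were nearly even. Epor, Stat5a and Socs3 each had a less one-sided split than the median viewpoint. Over the summed libraries they had 55.6%, 55.8% and 54.4% on the fuller side, beside a median of 57.6%. For Socs3 the direction depended on the range: 51.1% were upstream when events between 10 and 250 kb were counted.

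The receptor gene Epor (viewpoint chr9:21767534-21768951, minus strand) had no called window. Its window of highest ratio, among those with an expected count of at least 5, was 179 kb upstream (chr9:21945001-21950000) and overlaps no gene. It held 10, 7 and 6 events against 7.14 expected in all (3.22-fold, negative binomial adjusted p = 0.33), and library a decided its height (6.20-fold, against 2.53-fold and 2.17-fold). The lowest adjusted p of any Epor window was 0.19. Epor contacts were spread over broad ranges, with 1.44 ± 0.02-fold between 150 and 500 kb upstream and 0.568 ± 0.013-fold beyond that. Downstream the order was the opposite, with 0.885 ± 0.021-fold and then 1.26 ± 0.07-fold between 500 kb and 1 Mb.

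The transcription factor gene Stat5a (chr11:100721180-100721937, plus strand) was the deepest member and had no called window. Its highest window with an expected count of at least 5 was 139 kb upstream (chr11:100580001-100585000) and overlaps Rab5c, a GTPase of early endosomes. It held 6, 7 and 4 events (3.33-fold, negative binomial adjusted p = 0.34). The ratio moved with the setting, to 1.95 with the expected count adjusted for fragment length, 1.75 in the 10 kb window and 5.29 in the 2 kb window that held its middle. The contacts followed distance closely on both sides up to 500 kb, with ratios between 0.80 and 1.23, and were depleted beyond 500 kb upstream (36, 45 and 62 events, 0.339 ± 0.005-fold). Beyond 500 kb downstream the ratio was 1.11 ± 0.03.

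The adaptor gene Sh2b3 (chr5:122286258-122288270, minus strand) had the fewest events. Its highest window with an expected count of at least 5 lay in Atxn2, 69.6 kb downstream (chr5:122215001-122220000). It held 3 events in each library (1.66-fold), and 211 of its 398 windows held 0 events. The lowest adjusted p of any Sh2b3 window was 0.16. Counts in the Sh2b3 windows correlated between libraries at 0.36 to 0.37, beside 0.69 to 0.90 for the other members. Pim1, with nearly the same depth, had 2 called windows. Between 150 and 500 kb downstream Sh2b3 had 34, 51 and 67 events, 1.90 ± 0.03-fold over expectation (1.88-fold, 1.78-fold and 2.07-fold in the libraries). The same range upstream held 6, 23 and 19 events (0.491 ± 0.25-fold).

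The suppressor gene Socs3 (chr11:117830046-117830942, minus strand) had no called window either. Its highest window with an expected count of at least 5 was 52.1 kb upstream (chr11:117880001-117885000), over exons of Dnahc17 and Pgs1. It held 7, 9 and 10 events (2.30-fold, negative binomial adjusted p = 0.57). Pgs1, a phospholipid synthesis enzyme whose viewpoint lies 17.9 kb from Socs3, was the one promoter partner of Socs3 with an expected count of at least 2. The fragments beside the Pgs1 viewpoint had 1, 4 and 5 events from Socs3 against 5.76 expected in all (1.39 ± 0.99-fold, 1.74-fold summed). From the Pgs1 viewpoint, the fragments beside Socs3 had 36 events (1.39-fold summed). The first value rests on libraries b and c, since library a was at 0.689-fold.

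Taken over all members, contacts with other promoters were below the count expected from distance. Targeted fragments are masked in the table, so the fragments 1 or 2 places from each viewpoint were used in their place. Over all viewpoints these flanks were at 1.42 ± 0.02-fold, and over the members at 0.821 ± 0.024-fold (191 events against 230.5 expected), with 4 of the 7 members above 1 by this mean and 3 by the ratio over summed libraries. Stat5a set much of the low value, with 64 events against 99.2 expected (0.633 ± 0.041-fold), and 4 of its 19 partners with an expected count of at least 2 were above 1. The flanks of Stat3, another member of its family 79.6 kb away, had 2, 2 and 3 events against 11.9 expected in all. With members weighted equally the mean was 0.940, so the pooled value leans on the deepest member. Epor met its nearest partner, Swsap1 (7.76 kb away), at 0.794 ± 0.10-fold (0.759-fold summed), and from the Swsap1 viewpoint the summed ratio was 0.869.

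At the scale of single fragments no contact of any member was called (0 of 32282 pairs, with 0.00086% of the 28839756 pairs of all viewpoints called). At an unadjusted p under 0.05 there were 1047 member pairs (3.24%, beside 5.54% overall). The lowest adjusted p was 0.375. A pair of fragments of the Bcl2l1 windows show the scale of the counts: the 318-base fragment chr2:152592031-152592348 held 4, 3 and 3 events from Bcl2l1_a, and the 363-base fragment chr2:152522230-152522592 held 2, 7 and 3 from Bcl2l1_b.

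Jak2 was examined through 9 other viewpoints within 1 Mb. The 15 kb around its start (chr19:29320001-29335000, plus strand) had more events than expected from all 9 over the summed libraries. The median was 1.89-fold and the range 1.59-fold to 5.55-fold, and 6 of the 9 were above 1 in each library. The values from Uhrf2 and Ermp1 rested on 8 and 6 events, with 0 in library a. The 9 viewpoints share this region and are not independent, and the level around gene starts in general was not measured. The strongest contact was with Cdc37l1, a relative of a kinase co-chaperone, 261 kb away. It had 36, 67 and 73 events against 31.7 expected in all (5.30 ± 0.67-fold). Of these, 18, 27 and 32 fell in the window chr19:29325001-29330000, which holds the Jak2 start. This window was at 6.60 ± 0.03-fold (6.58-fold, 6.15-fold and 7.11-fold in a, b and c, negative binomial adjusted p = 0.0010). The window after it held 6, 17 and 20 (5.82 ± 2.54-fold, negative binomial adjusted p = 0.0024), and both were called.

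**Figure D5:**
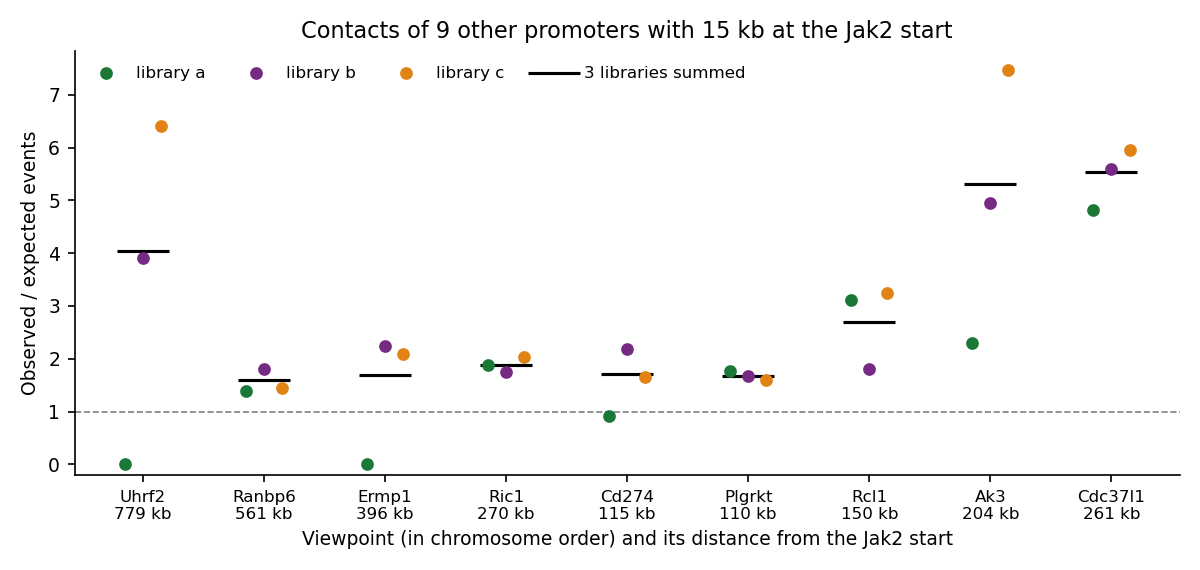
Observed over expected events between 9 other viewpoints and the 15 kb around the Jak2 start, by library (points) and summed (black lines), with the viewpoints in chromosome order and their distance from the start; the dashed line is 1. All 9 summed values lie above the line, and Cdc37l1 and Ak3 are above 5.

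The other called window lay inside Jak2 (chr19:29370001-29375000) and was seen from Ak3, a mitochondrial adenylate kinase gene. It rested on 2, 1 and 6 events (9.80-fold summed, negative binomial adjusted p = 0.025), of which library c gave most. Of the 117 windows over the Jak2 gene seen from these viewpoints 3 were called (2.56%, beside the 0.188% over all windows), and the whole gene was at 1.88-fold. The viewpoints share these windows, so the 117 are not independent.

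Stat5b, the neighbour of Stat5a, was seen from 31 viewpoints and had none of 465 windows called, beside the 0.188% over all windows. The 15 kb around its start (chr11:100705001-100720000) had a median of 0.986-fold and a range of 0.303-fold to 1.61-fold, and 15 of the 31 were above 1. From its neighbour Stat5a it had 35, 44 and 56 events against 159.6 expected (0.815 ± 0.094-fold). The difference between Jak2 and Stat5b was not tested.

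Seen from other viewpoints, none of the windows over Epor (52), Stat5a (180), Sh2b3 (114), Bcl2l1 (210), Pim1 (22) or Socs3 (24) was called in the negative binomial test, beside the 0.188% over all windows. With so few windows tested, no calls is near the background. The summed ratio was highest over Sh2b3 (1.46-fold, 827 events from 23 viewpoints) and lowest over Epor (0.825-fold, 1225 events from 26). Those of Pim1 (0.924), Stat5a (0.941), Bcl2l1 (1.18) and Socs3 (1.23) lay between.

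The other viewpoint within 500 kb whose profile was most like that of a member was taken as the one with the highest Spearman correlation of ratios over shared windows. For Stat5a this was Dhx58 (rho = 0.571 over 363 windows), for Pim1 it was Cmtr1 (0.488 over 361) and for Epor it was Zfp809 (0.433 over 341). For Socs3 it was Cyth1 (0.251 over 338) and for Sh2b3 it was Trafd1 (0.229 over 304). Bcl2l1_a was most like Pofut1_Plagl2 (0.271 over 313), beside 0.270 over 398 windows for Bcl2l1_b, and Bcl2l1_b was most like Bcl2l1_a. By Pearson's r the order of these neighbours of Bcl2l1_a was the opposite, with 0.515 for Bcl2l1_b and 0.274 for Pofut1_Plagl2. The windows of a pair share libraries, the members differ in depth, and the part of depth in the order of rho was not tested.

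Of 54 further genes of the pathway and of red cell survival, 30 had viewpoints and 31 viewpoints were deep enough to test. They had 21 called windows of 12226 (0.172%), and 8 of the 31 had at least 1 call (25.8%), both near the background. Among these were Pik3r1, the regulatory subunit of PI3 kinase (9 and 1 from its pair of fragments), Ccnd3, a cyclin (3), and Foxo3 and the transferrin receptor Tfrc (2 each). Cish, a STAT5 target of the Socs family, and Cbl, a ubiquitin ligase, had 1 each.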

How the data were processed

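Nuclear-Titrated Capture-C was performed on ter119+ mouse erythroid cells, with 3 libraries of 1 group. The authors trimmed reads with Trim Galore, aligned them to mm9 with Bowtie, and counted unique ligation events per DpnII fragment with CCseqBasic, after removing duplicates and masking targeted fragments. The deposited signal is the number of events per 100000 same-chromosome events of a viewpoint in a library. The lowest value of a viewpoint in a library was read as 1 event, and dividing by it gave whole numbers for 100% of values (tolerance 0.01). The depth was 18230099 to 34428035 events per library. Intervals are exact binomial (95%) and cover counting error only.

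Counts were summed in 5 kb windows from 10 kb to 1 Mb. Expected counts came from 50 distance bins and the total of the viewpoint. For each bin, a negative binomial dispersion came from the method of moments, without the highest 0.1% of windows, and p-values were adjusted over all windows of viewpoints with at least 1000 events. Single fragments were tested from 2.5 kb to 1 Mb, with the dispersion from all pairs. Windows were named where called, and otherwise as the window of highest ratio with an expected count of at least 5. The procedure was run on counts simulated from its own model, which cannot show whether the model holds for these data. Simulated contacts were placed only in windows with an expected count of at least 5, and some called windows had less. Python 3.11.15, numpy 2.4.6, pandas 2.3.3, scipy 1.17.1 and matplotlib 3.10.9 were used. Promoter sequences were from RefSeq (GRCm38.p6) and were placed in mm9 by exact match. The members and gene lists were chosen with earlier results of these data known. Alternatives changed the dispersion, the window size, the expected count, the minimum of events, the distance range and the libraries used. An item of the pathway list is not reported here.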

Additional observations from a re-analysis of the deposited data

How the results depend on the processing

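The 10 called windows of the members became 3 with the dispersion from all windows, 70 with Poisson counts, 2 with the expected count by side and 0 with at least 5000 events, where Stat5a alone was left. Leaving out 1 library gave 5 to 8 (8 without a, 6 without b, 5 without c), and the other alternatives gave 8 to 14. Each of the 10 kept its call in 5 to 11 of 12 alternatives. The minimum of 5000 events is not among these 12, since no viewpoint with a call reached it. The 3 called windows at Jak2, for which the alternatives were chosen after seeing the data, became 23 with Poisson counts, 1 in 2 kb windows and 1 by side. The 0 called fragments became 3 and 4 with the highest 0.1% and 1% left out of the dispersion and 52 with Poisson counts. The median share of events between 2.5 kb and 1 Mb, 55.2%, was 70.8% of events within 10 Mb, 48.7% up to 500 kb and 47.6% from 10 kb. The median share on the fuller side, 68.9%, was 65.0% from 2.5 kb and 72.7% up to 250 kb, where Socs3 turned to 51.1% upstream. The promoter flank ratio, 0.829, was 0.788 at 1 place, 0.930 at 1 to 5 places and 0.940 with members weighted equally, and 0.794 to 0.853 with 1 library left out. Apart from the changes made by construction, the cause was not tested. No paired analysis was possible because all libraries form 1 group. Of the 7 viewpoints 6 had fewer events than the median viewpoint, and all 10 calls came from these.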
